A study of Homo sapiens with 4 samples.

Results

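The FOX genes encode the forkhead transcription factors, which share a DNA-binding domain known as the forkhead or winged helix domain. They were taken as the gene rows of the deposited FPKM table whose symbol begins with FOX, a subfamily letter from A to S and a digit, on contigs whose name has no _ character. Antisense symbols were left out by rule, and 50 rows with 49 symbols remained of 23642 rows on such contigs and 24934 rows in all. FPKM counts fragments by kilobase of transcript and by the mapped fragments of the library, so that levels of different genes can be set side by side. The cells were HEK-293, an established human embryonic kidney line, transfected with 10 nM siRNA by Lipofectamine RNAi MAX and collected after 48 h. The 4 libraries came from cells given ZSCAN5A siRNA 4 (si4), ZSCAN5A siRNA 5 (si5), ZSCAN5B siRNA 1 (si1) or a scrambled negative control siRNA. All 4 therefore carried a transfected siRNA, and there was 1 library for each, so the values below have no replicate spread. The comparisons ask which genes differ from the scrambled control when a ZSCAN5 zinc finger protein is targeted.

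Forkhead proteins bind DNA by a recognition helix that sits in the major groove, and members of the family serve very different roles. FOXA proteins open chromatin in endoderm, FOXO proteins are held in the cytoplasm by AKT phosphorylation and act in stress and growth arrest, and FOXM1 drives genes needed for mitosis. FOXC, FOXD, FOXF and FOXQ genes are known as regulators of mesoderm, kidney and neural crest development, and in the kidney FOXD1 marks the stromal progenitors.

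The siRNA target sequences are shown because their seed regions return below, with capitals on the 7 bases of the target that face bases 2 to 8 of the guide strand, read as the strand antisense to the target.
si4: cgagaagaggtttACGTGTAa
si5: aagctagtcatccACAAGAGa
si1: acgtgtgcaataaATCATTTa
Each target sequence was found in the annotated transcript of its own gene and in none of the other transcripts matched to the table. ZSCAN5A was at 0.730 and 0.713 FPKM with its own siRNAs si4 and si5, against 2.53 with si1 and 2.42 in the control, so that both siRNAs left about 30% of it. ZSCAN5B was at 0.0331, 0.0663, 0.0948 and 0.0903 FPKM in the same order. At these low levels it was not lower in the library made with its own siRNA, which is called the library labelled ZSCAN5B si1 throughout. Other measures of the knockdown were not analysed here. The FPKM values summed to between 488036 in the control and 546239 with si4, and the steps between low values put the siRNA libraries at 1.02 to 1.54 times the depth of the control. HEK-293 markers were present, with VIM, KRT8 and KRT18 at 70.4 FPKM or above in every library, and PAX2, a gene of the early kidney, at 0.584 to 0.615 FPKM in the siRNA libraries and 1.16 in the control. Markers of blood, endothelium and liver each summed to at most 0.483 FPKM in any library, and HBB and TTR were listed at 0. Among podocyte markers NPHS1 was at 0.0106 to 0.0275 FPKM, whereas PODXL was at 8.32 to 9.74 FPKM.

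Of the 50 rows, 29 reached 1 FPKM in at least 1 library, 3 reached 0.3 FPKM but not 1 FPKM in any library, 16 stayed under 0.3 FPKM, and FOXI1 and FOXI2 were listed at 0 in all libraries. The 29 genes all stood at 1.11 FPKM or above in the control, so none of them passed the limit through an siRNA library alone. FOXN4, at 0.821 and 0.977 FPKM with si4 and si5, passed it in the ZSCAN5A comparison through the control alone. Its place below the control there was thus favoured by the limit. FOXC1, a regulator of mesenchyme and of eye and kidney development, was the highest in the control at 48.8 FPKM. FOXM1 followed at 31.1, FOXK2 at 23.9, FOXF2 at 19.3 and FOXD1 at 17.9 FPKM. FOXC1 remained the highest in the siRNA libraries, at 49.2, 47.1 and 43.2 FPKM with si4, si5 and si1. With 1 library there is no error on this order, and neighbours such as FOXN3 at 6.65 and FOXA1 at 6.67 FPKM cannot be ranked.

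**Figure D1:**
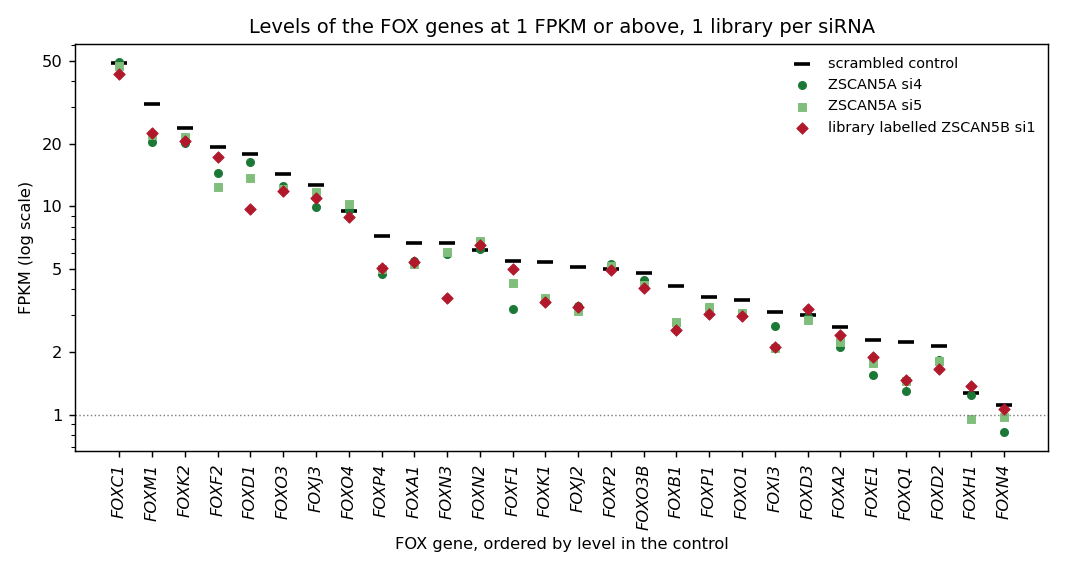
FPKM of 28 of the 29 FOX genes that reached 1 FPKM, on a log axis, with a bar for the scrambled control and a symbol for each siRNA library. FOXC1 stands highest at 43.2 to 49.2 FPKM, and for most genes the control bar is above the siRNA symbols.

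The expressed FOX genes mostly stood below the control. In the ZSCAN5A comparison, the mean of si4 and si5 over the control, 26 of the 29 genes were below the control, where 53.3% of 12993 genes tested were. The median log2 ratio was -0.23 for the FOX genes and -0.02 for all genes tested. In the library labelled ZSCAN5B si1 the count was again 26 of 29, where 51.5% of 12921 genes tested were below the control, with medians of -0.25 and -0.01. These comparisons share the single control library, so they do not stand as separate evidence. In 23 of 29 FOX genes all 3 siRNA libraries lay below the control, an arrangement held by 36.2% of 12983 genes tested. Only FOXN2 lay above the control in all 3, as did 30.1% of genes tested. The remaining genes FOXC1, FOXD3, FOXH1, FOXO4 and FOXP2 were mixed. Whether this arrangement came from the siRNAs or from the control library cannot be told apart, since there was 1 control. Fewer cells of a kind and less RNA per cell cannot be told apart in these libraries either.

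**Figure D2:**
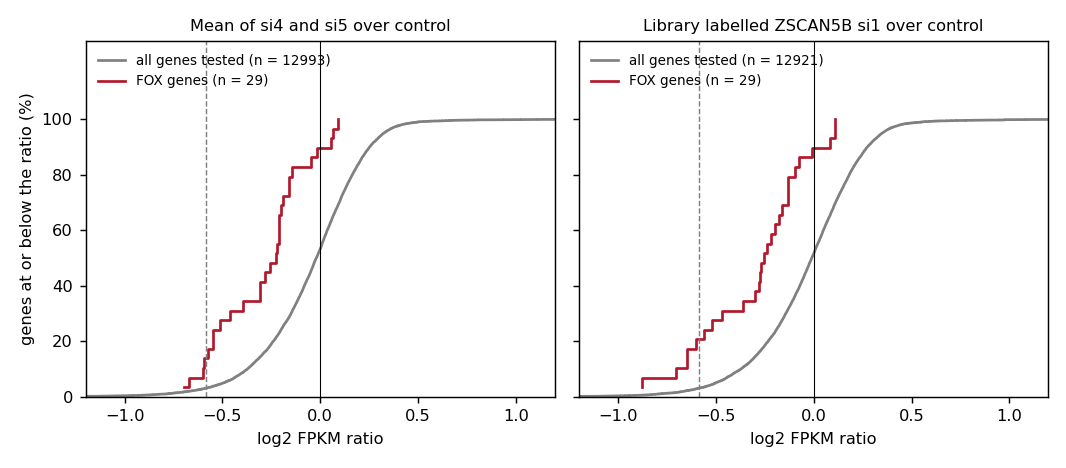
Share of genes at or below each log2 FPKM ratio to the control, for all genes tested in grey and the FOX genes in red, with the ZSCAN5A siRNAs on the left and the library labelled ZSCAN5B si1 on the right. The FOX curve lies to the left of the grey curve in both panels, with medians of -0.23 and -0.25 against -0.02 and -0.01.

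A ratio beyond 1.5-fold was taken as the limit for calling a gene. In the ZSCAN5A comparison 4 FOX genes were lower by more than this, against 3.11% of all genes tested, and none was higher, against 0.677%. In the library labelled ZSCAN5B si1 the count was 6 lower, against 3.17%, and none higher, against 0.844%. FOXQ1, FOXB1, FOXJ2 and FOXK1 were past the limit in both comparisons, and FOXD1 and FOXN3 were past it in the library labelled ZSCAN5B si1 alone. In the ZSCAN5A comparison FOXP4 at -0.57, FOXM1 at -0.55 and FOXF1 at -0.55 lay just short of the limit, as did FOXI3 at -0.56 with si1. FOXQ1 and FOXJ2 were more than 1.5-fold below the control in each of the 3 siRNA libraries, which held for 1.11% of genes tested. With si4 alone 7 FOX genes were past the limit, where 6.36% of all genes tested were past it either way, and with si5 alone FOXF2, FOXJ2 and FOXQ1 were, where 3.54% of all genes were. With a pseudocount of 1 FPKM added to every value, none was past it in the ZSCAN5A comparison and FOXD1 and FOXN3 were with si1, where 1.53% and 1.63% of all genes were.

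**Figure D3:**
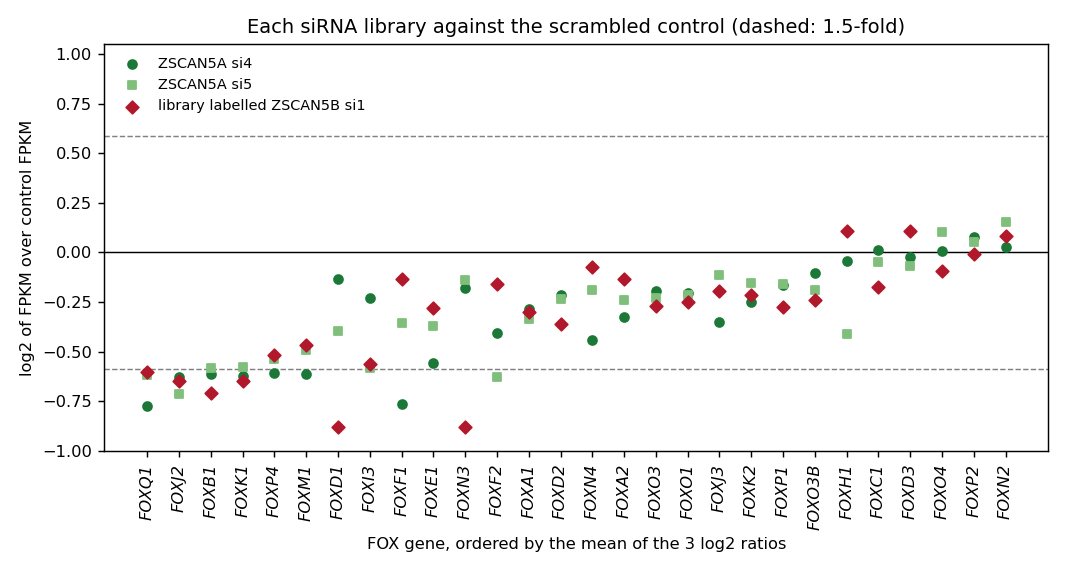
log2 ratio of FPKM in each siRNA library to the scrambled control for 28 of the 29 FOX genes, with circles for si4, squares for si5, diamonds for the library labelled ZSCAN5B si1 and dashed lines at 1.5-fold. FOXQ1, FOXJ2, FOXB1, FOXK1, FOXP4 and FOXM1 lie low in all 3 libraries, whereas FOXD1 and FOXN3 reach -0.88 with si1 and lie higher with si4 and si5.

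The 6 genes past the limit carry the subfamily letters Q, B, D, J, K and N. The codons of their recognition helix are printed as 45 bases from the annotated GRCh37 transcripts. Capitals mark the 21 positions where all 6 genes have the same base.
FOXQ1: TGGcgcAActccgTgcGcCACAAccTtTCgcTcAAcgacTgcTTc
FOXB1: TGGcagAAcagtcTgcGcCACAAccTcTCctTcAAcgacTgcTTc
FOXD1: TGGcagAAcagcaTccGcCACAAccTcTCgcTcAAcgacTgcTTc
FOXJ2: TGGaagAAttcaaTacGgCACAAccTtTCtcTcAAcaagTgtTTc
FOXK1: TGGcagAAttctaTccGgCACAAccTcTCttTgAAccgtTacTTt
FOXN3: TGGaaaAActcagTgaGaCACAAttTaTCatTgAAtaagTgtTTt
Pairs of these stretches shared 25 to 40 of the 45 bases, with FOXB1 and FOXD1 the most alike and FOXD1 and FOXN3 the least, and 11 to 14 of the 15 encoded residues. A search pattern for this helix was found in 43 of 46 translated FOX transcripts. The stretches lie at chr6:1313426-1313470 (plus strand) for FOXQ1, chr15:60297331-60297375 (plus) for FOXB1, chr5:72743639-72743683 (minus) for FOXD1 and chr14:89878305-89878349 (minus) for FOXN3. In FOXJ2 (chr12:8192756-8195292, plus) and FOXK1 (chr7:4795009-4796663, plus) an intron interrupts them.

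FOXQ1, a gene known for its part in epithelial plasticity and hair differentiation, had 1.3 FPKM with si4, 1.46 with si5 and 1.47 with si1, against 2.23 in the control. All 3 siRNA libraries lay below the control and close to one another. Its log2 ratio was -0.69 in the ZSCAN5A comparison and -0.60 with si1. For some genes the 4 FPKM values stand in whole-number proportions that give the fragments behind them, and 95% intervals by the exact Clopper-Pearson method then bound each ratio, for counting error alone. FOXQ1 rested on 176, 278 and 185 fragments with si4, si5 and si1 and on 276 in the control. Its level was 58.4% of the control with si4 (interval 48.1% to 70.8%), 65.2% with si5 (55.01% to 77.3%) and 66.0% with si1 (54.5% to 79.8%). The gene lies at chr6:1312675-1314993 of hg19, where FOXF2 (from 1390069) and FOXC1 (from 1610681) are also found. The log2 ratios with the ZSCAN5A siRNAs and si1 were -0.51 and -0.16 for FOXF2 and -0.02 and -0.18 for FOXC1.

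FOXB1, a gene of the developing diencephalon and hindbrain, had 2.72, 2.78 and 2.55 FPKM with si4, si5 and si1 and 4.16 in the control. Again the siRNA libraries lay together below the control. Its level was 65.5% of the control with si4 (interval 54.8% to 78.2%), 66.9% with si5 (56.9% to 78.5%) and 61.3% with si1 (50.9% to 73.7%). The log2 ratio of -0.60 in the ZSCAN5A comparison was only just past the limit of 1.5-fold, and with si5 alone it was -0.58.

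FOXJ2, a broadly expressed activator, had 3.33, 3.14 and 3.28 FPKM with si4, si5 and si1 and 5.14 in the control. It rested on more fragments than FOXQ1 and FOXB1, from 1029 with si1 to 1588 in the control, so that its intervals were narrower. They ran from 59.96% to 69.96% of the control with si4, from 56.8% to 65.5% with si5 and from 58.9% to 69.0% with si1. The 3 intervals overlapped.

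FOXK1, a repressor that acts in muscle progenitors and in glucose metabolism and binds the BAP1 and SIN3 complexes, had 3.51, 3.62 and 3.46 FPKM with si4, si5 and si1 and 5.41 in the control. The log2 ratios were -0.60 and -0.65 in the comparisons with ZSCAN5A siRNAs and si1, and -0.58, short of the limit, with si5 alone. Its close relative FOXK2 had 20.1, 21.5, 20.6 and 23.9 FPKM in the same order, and log2 ratios of -0.20 and -0.22. Fragments could not be recovered for either gene.

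The promoters of FOXQ1 and FOXJ2 are shown as those of the genes past 1.5-fold in every siRNA library. They hold 300 bases around the annotated start from RefSeq (build GRCh38.p14), with each CG in capitals. The FOXQ1 sequence is chr6:1311848-1312147 on the plus strand, and the FOXJ2 sequence is chr12:8032466-8032765 on the plus strand.
FOXQ1: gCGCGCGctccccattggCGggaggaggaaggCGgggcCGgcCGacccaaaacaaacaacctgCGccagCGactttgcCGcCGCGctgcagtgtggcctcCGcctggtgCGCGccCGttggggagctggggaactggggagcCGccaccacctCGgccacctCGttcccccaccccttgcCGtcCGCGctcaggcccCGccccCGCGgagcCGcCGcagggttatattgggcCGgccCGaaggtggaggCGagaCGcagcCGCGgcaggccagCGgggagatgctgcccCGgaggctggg
FOXJ2: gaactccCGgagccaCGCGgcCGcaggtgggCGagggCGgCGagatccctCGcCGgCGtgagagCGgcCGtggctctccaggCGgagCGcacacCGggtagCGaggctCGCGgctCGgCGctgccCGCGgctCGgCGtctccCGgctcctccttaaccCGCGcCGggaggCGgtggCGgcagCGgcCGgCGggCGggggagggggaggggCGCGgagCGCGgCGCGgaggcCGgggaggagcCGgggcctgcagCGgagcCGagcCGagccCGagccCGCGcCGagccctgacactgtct
The GC content was 74.7% for FOXQ1, above 89.7% of the 35116 promoters of the table, and 80.3% for FOXJ2, above 97.7%. FOXK1 was at 84.3%, above 99.6% of promoters, but FOXB1 at 56.3% was above only 44%. A high GC content was thus not shared by all 4 genes. The median over 34 promoters of 23 tested FOX genes was 70.2%, and over all promoters it was 58.7%. The letters TGTTTA, a core of many forkhead sites, were searched on both strands. They were in 4 of these 34 promoters, 11.8%, and in 12.3% of all promoters. None of the promoters of the 6 genes past the limit held them, but 6 promoters are too few to set these genes apart from that share. The letters GGGCGG of the GC box, on both strands, were in 24 of the 34, 70.6%, and in 45% of all promoters.

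FOXM1, the activator of G2 and mitotic genes, had 20.4, 22.1 and 22.5 FPKM with si4, si5 and si1 and 31.1 in the control. All 3 siRNA libraries were below the control, with log2 ratios of -0.55 for the ZSCAN5A siRNAs and -0.47 for si1, short of the limit. Of 33 genes known as FOXM1 targets all were expressed, 12 were below the control with the ZSCAN5A siRNAs and 18 with si1, and none was past 1.5-fold. Over all genes tested, 53.3% and 51.5% were below the control and 3.79% and 4.01% were past 1.5-fold either way. The median log2 ratios of the targets were 0.08 and -0.02. By the mean of both ratios the largest differences among them were in CDC25B, a phosphatase that activates CDK1, at 19.95, 21.2, 21.5 and 26.6 FPKM with si4, si5, si1 and the control, and in PLK1, a mitotic kinase, at 47.5, 51.6, 45.7 and 58.2 FPKM. CENPE, a kinetochore motor chosen after its values were seen, differed between the siRNAs, with 8.89 and 9.78 FPKM for si4 and si5, 5.95 for si1 and 6.41 for the control.

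FOXP4, a partner of FOXP1 and FOXP2 in lung and neural development, had 4.75, 5.00 and 5.06 FPKM with si4, si5 and si1 and 7.25 in the control. Its log2 ratios were -0.57 and -0.52. Corrected for GC content and length of the transcript, as given with gene structure, they were -0.22 and -0.19, and those of FOXM1 were -0.45 and -0.39. FOXP1, known for roles in B cells and neurons, had 3.27, 3.29, 3.03 and 3.67 FPKM in the same order, and FOXP2, known for its part in speech circuits, had 5.28, 5.19, 4.96 and 5.00. FOXP2 thus did not share the lower level, with log2 ratios of 0.07 and -0.01. FOXP3, the factor of regulatory T cells, stayed between 0.223 and 0.283 FPKM. In the list of 21 partners of FOXK and FOXP proteins, 20 were expressed, of which 12 and 14 were below the control with the ZSCAN5A siRNAs and si1, with medians of -0.15 and -0.21. Over all genes tested, 53.3% and 51.5% were below the control and 3.11% and 3.17% were past 1.5-fold lower. GATAD2B, a subunit of the NuRD complex, was past the limit in both comparisons with 4.35, 4.35, 4.68 and 7.41 FPKM with si4, si5, si1 and the control. HCFC1, a partner of BAP1, was past it in the ZSCAN5A comparison with 10.7, 10.2, 11.1 and 16.3 FPKM.

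FOXD1 and FOXN3 had a pattern of their own. FOXD1 had 16.4 FPKM with si4, 13.7 with si5 and 9.76 with si1, against 17.9 in the control. Its fragments numbered 2157, 2545, 1197 and 2166, which put it at 91.2% of the control with si4 (interval 85.9% to 96.9%), 76.1% with si5 (71.8% to 80.6%) and 54.4% with si1 (50.6% to 58.4%). The 3 intervals did not overlap. FOXN3, a repressor linked to cell cycle checkpoints, had 5.88 FPKM with si4, 6.04 with si5 and 3.61 with si1, against 6.65 in the control. The si4 and si5 values lay near the control and the si1 value stood apart. Fragments could not be recovered for FOXN3, so it has no interval.

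Set directly against the mean of si4 and si5, without the control, the library labelled ZSCAN5B si1 had FOXN3 at a log2 ratio of -0.72 and FOXD1 at -0.62. These 2 of 29 FOX genes were past 1.5-fold lower, against 0.628% of 12888 genes tested, and none was past it higher, against 0.683%. The largest ratios the other way were 0.41 for FOXF1 and 0.35 for FOXF2. The median FOX log2 ratio in this comparison was -0.01, close to the 0.01 of all genes tested.

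Both FOXD1 and FOXN3 hold the letters ATCATTT in their annotated 3' UTR, the 7-base match to bases 2 to 8 of the si1 guide. The sites are shown as 30 bases of the GRCh37 transcripts with the match in capitals, beside the si1 target above.
FOXN3 first site: atcagacgtgtgtgaacgATCATTTctgac
FOXN3 second site: ccaaagacaaactatttcATCATTTattgt
FOXD1 site: agaaaaaaagtcaaaattATCATTTatttc
The FOXN3 sites lie in chr14:89623513-89623542 and chr14:89622617-89622646, both on the minus strand and in the 3' UTR of 6237 bases. The FOXD1 site lies in chr5:72742256-72742285, on the minus strand and 525 bases into a 3' UTR of 699 bases. Over the 21 bases that would face the whole siRNA without gaps, the first FOXN3 site has 15 of 21 bases of the ZSCAN5B target, the second has 10, and the FOXD1 site has 13. Each count includes the 7 bases of the match, by which the sites were found. The si1 sites in other FOX transcripts have 8 to 12.

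The match was present in 20.5% of 17004 annotated 3' UTRs and in 10 of 47 FOX transcripts, 9 of them in expressed genes. Of those 9, FOXD1 and FOXN3 were past 1.5-fold lower against the mean of si4 and si5, while none of 20 expressed FOX genes without it was. Against the control, 2 of the 9 with the match and 4 of the 20 without it were past the limit lower, with medians of -0.25 in both sets. Against the mean of si4 and si5, the other 7, FOXA1, FOXJ3, FOXN2, FOXO1, FOXO3, FOXO3B and FOXO4, had log2 ratios between -0.15 and 0.03. In that comparison the shares past the limit lower were also taken over all genes tested with an annotated 3' UTR. They were 1.02% of 2559 with the match and 0.338% of 8292 without it. Against the control they were 5.02% of 2568 and 2.19% of 8316. The part of the seed match in the FOXD1 and FOXN3 values was not tested.

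**Figure D4:**
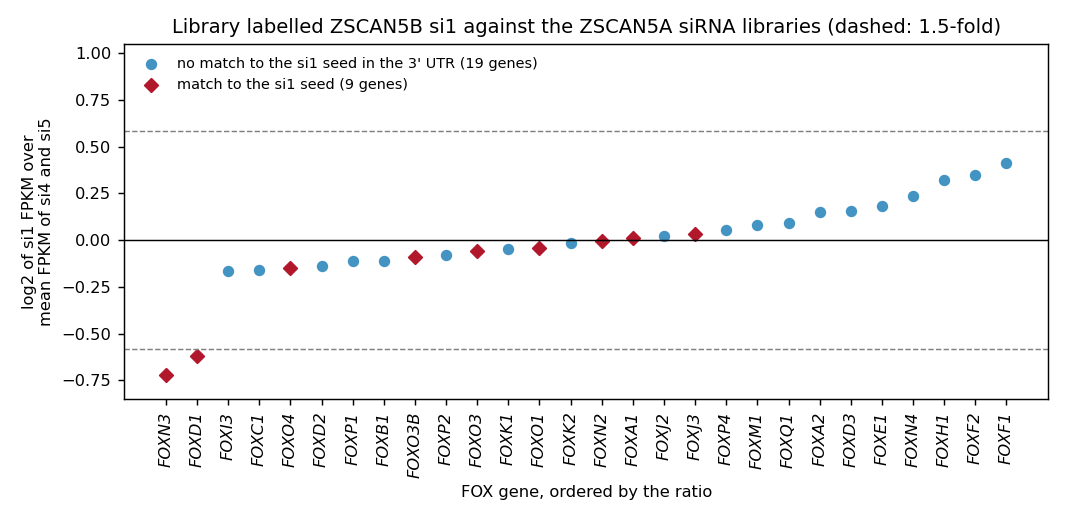
log2 ratio of FPKM in the library labelled ZSCAN5B si1 to the mean of si4 and si5 for 28 of the 29 FOX genes, with red diamonds for the 9 genes whose 3' UTR matches the si1 seed, blue circles for the others and dashed lines at 1.5-fold. FOXN3 at -0.72 and FOXD1 at -0.62 lie past the limit, and the other 7 genes with a match lie between -0.15 and 0.03.

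Seed matches to the ZSCAN5A siRNAs were searched in the same way. The si4 seed match, in 3.05% of 3' UTRs, was in FOXF2 alone among the FOX transcripts, and the si5 match, in 11.2%, was in FOXF1 with 2 sites and in FOXO3. Over all genes with an annotated 3' UTR, 21.5% with the si4 match and 4.45% without it were past 1.5-fold lower in the si4 library against the control, and for si5 in its own library the shares were 5.65% and 1.99%. FOXF1, a mesenchymal regulator of gut and lung, had 3.22 FPKM with si4, 4.28 with si5 and 5.00 with si1, against 5.48 in the control. It was lowest with si4. Its level was 58.8% of the control with si4 (interval 52.4% to 66.0%) and 78.1% with si5 (70.9% to 86.2%). FOXF2, its relative, had 14.6, 12.5, 17.2 and 19.3 FPKM with si4, si5, si1 and the control, with 75.5% (71.0% to 80.4%) for si4 and 64.7% (61.0% to 68.6%) for si5. FOXF2 was lowest with si5. The part of these seed matches in the FOXF1, FOXF2 and FOXO3 values was not tested.

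The libraries made with si4 and si5 target the same gene, and none of the 28 FOX genes tested differed between them by 1.5-fold, where 2.53% of 12800 genes tested did. With a share this low, a count of 0 of 28 does not set the FOX genes apart. FOXN4 was under 1 FPKM in both libraries and was not tested. FOXF1 and FOXF2, however, had si4 and si5 intervals that did not overlap, as did FOXD1. For these 3 genes the ZSCAN5A mean joined values that differed beyond counting error, with no measure of the spread between libraries. FOXH1, the partner of SMAD proteins in nodal signaling, had 1.24, 0.957, 1.37 and 1.27 FPKM, and FOXI3, a regulator of ectodermal organs, had 2.67, 2.09, 2.12 and 3.13. Their si4 and si5 intervals overlapped. Of 10 FOXH1 partners 6 were expressed, of which 6 and 3 were below the control, where 53.3% and 51.5% of all genes tested were. The medians of these partners were -0.16 and -0.08. ACVR2B, an activin receptor, was past the limit with si1 at 3.99 against 6.50 FPKM, where 3.17% of all genes tested were past it lower.

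**Figure D5:**
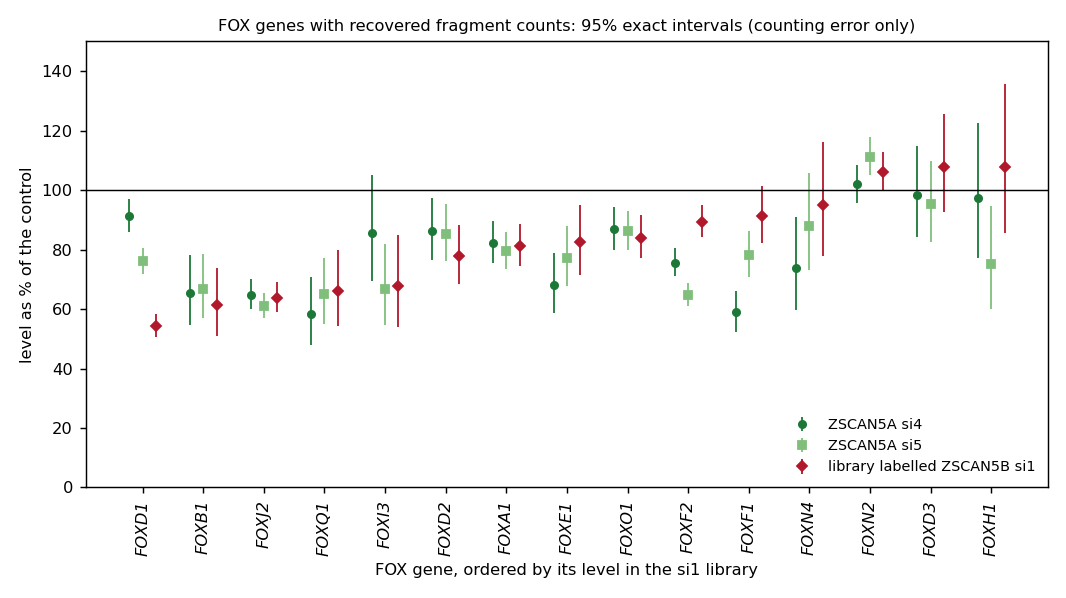
Level of 15 FOX genes as percent of the scrambled control, with exact Clopper-Pearson 95% intervals from recovered fragments, for si4 (circles), si5 (squares) and the library labelled ZSCAN5B si1 (diamonds). FOXB1, FOXJ2 and FOXQ1 lie below 80% in all 3 libraries with overlapping intervals, and the intervals of FOXD1 do not overlap.

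The FOXO genes, which act downstream of insulin and AKT, were not past the limit in either comparison. FOXO1 had 3.08 FPKM with si4, 3.06 with si5 and 2.98 with si1, against 3.55 in the control, or 86.8% (79.9% to 94.4%), 86.1% (79.7% to 93.0%) and 84.0% (77.0% to 91.5%) of the control. The 3 values were alike and all intervals lay under the control. FOXO3 had 12.5, 12.2, 11.9 and 14.3 FPKM in the same order, and FOXO4 had 9.60, 10.3, 8.94 and 9.54. FOXO4 was above the control with si4 and si5 and below it with si1. FOXO3B, at 4.06 to 4.79 FPKM, is a near copy of FOXO3, and how the authors' counting divided fragments between them is uncertain.

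Among 26 genes upstream of the FOXO proteins, all expressed, 15 were below the control in each comparison, where 53.3% and 51.5% of all genes tested were. The medians of these 26 genes were -0.07 and -0.03. IRS2, an adaptor of the insulin receptor, was past the limit in the ZSCAN5A comparison at a log2 ratio of -0.69, with 3.11, 2.24, 2.88 and 4.32 FPKM with si4, si5, si1 and the control. IGF1R, the receptor of insulin-like growth factor, was past it with si1, at 6.48 against 10.1 FPKM. Of the 26 genes, 1 was past the limit lower with the ZSCAN5A siRNAs and 2, IGF1R and IRS2, were with si1. The shares over all genes tested were 3.11% and 3.17%, so the ZSCAN5A count was near the background. Among 30 known FOXO targets, 23 were expressed, of which 12 and 18 were below the control, with medians of -0.02 and -0.15. In the ZSCAN5A comparison 4 were past the limit, all lower, where 3.11% of all genes tested were past it lower. BCL2L11, which encodes the pro-apoptotic protein BIM, had 11.2, 9.99, 10.7 and 20.1 FPKM with si4, si5, si1 and the control, and BCL6, a repressor of germinal centre B cells, had 1.43, 2.33, 1.96 and 2.84. TXNIP, a regulator of thioredoxin and glucose uptake, had 18.7, 32.8, 26.6 and 38.8 FPKM, so that si4 and si5 were far apart. BCL2L11 and IRS2, which is also in this list, were past the limit with si1 too, where 3.17% of all genes tested were past it lower. CDKN1A, CDKN1B, CCNG2 and the other expressed targets were not past it in either comparison.

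Among the remaining expressed genes, FOXA1, a pioneer factor of endoderm and of hormone-responsive tissues, had 5.48, 5.29, 5.42 and 6.67 FPKM with si4, si5, si1 and the control. Its intervals of 75.4% to 89.5%, 73.3% to 85.9% and 74.5% to 88.7% of the control were nearly the same in all 3 libraries. FOXA2 had 2.11, 2.24, 2.41 and 2.64 FPKM. FOXE1, the thyroid factor, was at 68.1% (58.8% to 78.8%) of the control with si4, 77.2% (67.9% to 87.9%) with si5 and 82.4% (71.5% to 94.9%) with si1. FOXD2 was at 77.9% to 86.3% of the control over the 3 libraries, and FOXD3, a neural crest factor, at 95.2% to 108%, with every FOXD3 interval holding 100%. FOXJ3 had 9.90, 11.7, 11.0 and 12.6 FPKM, and FOXN4 had 0.821, 0.977, 1.06 and 1.11. FOXN2, the gene above the control in all 3 libraries, was at 102% (95.7% to 109%), 111% (105% to 118%) and 106% (99.6% to 113%).

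The genes under 1 FPKM rested on few fragments. FOXA3 had 44, 74, 36 and 29 fragments with si4, si5, si1 and the control. Its level was 139% of the control with si4 (interval 85.03% to 230.3%), 165% with si5 (106% to 263%) and 122.2% with si1 (72.83% to 206.5%). FOXL1, which lies with FOXF1 and FOXC2 on chromosome 16, had 33, 49, 24 and 42 fragments. FOXL1 was at 71.97% of the control with si4 (44.2% to 116.3%), 75.54% with si5 (49% to 116.9%) and 56.2% with si1 (32.6% to 95.02%). FOXC2, the relative of FOXC1, had 0.265, 0.304, 0.354 and 0.423 FPKM. FOXB2, FOXE3 and FOXL2 had 7 fragments each in the control and FOXJ1 had 10, and their intervals spanned 100% in all 3 siRNA libraries. FOXN1, FOXR1, FOXR2 and FOXS1 were listed at 0 in 3 libraries and at no more than 0.0199 FPKM in the other. FOXD4 stood between 0.356 and 0.448 FPKM, and FOXD4L1, FOXD4L3, FOXD4L4 (on 2 rows), FOXD4L5 and FOXD4L6 between 0.0325 and 0.177 FPKM. The FOXD4 genes are near-identical copies, so their separate values are uncertain.

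By gene structure each set of FOX genes had a median below 0, and the sets differed most by GC content with the ZSCAN5A siRNAs. Of the 29 expressed FOX genes, the 17 whose annotated transcript has 1 to 3 exons had a median log2 ratio of -0.26 with the ZSCAN5A siRNAs and -0.25 with si1, and the 12 with more exons had -0.21 and -0.26. All genes tested with 1 to 3 exons had medians of -0.01 and 0.01. The 16 genes on loci under 10 kb had -0.27 and -0.21, and the 13 on longer loci had -0.21 and -0.27. By GC content of the transcript, the 17 genes at 55% or more had -0.31 and -0.28, and the 12 under it had -0.20 and -0.24. All genes tested at 55% GC or more had medians of -0.05 in both comparisons. Across the 29 genes, which share the same 4 libraries, the Spearman correlation of the ZSCAN5A log2 ratio with transcript GC content was -0.38 and with transcript length 0.23, where 11171 genes tested gave -0.17 and -0.33. With si1 the FOX values were -0.09 and -0.20, where 11132 genes tested gave -0.16 and -0.35. With the median ratio of all genes of similar transcript length and GC content removed, the FOX medians were -0.19 and -0.15, and 1 and 3 genes were past the limit in place of 4 and 6, where 2.1% and 2.55% of all genes tested were past it either way. FOXQ1 at -0.66 stayed past it with the ZSCAN5A siRNAs, and FOXB1 at -0.63, FOXD1 at -0.84 and FOXN3 at -0.69 did with si1. FOXJ2 was just short at -0.55 and -0.54 in the ZSCAN5A and si1 comparisons, as did FOXQ1 at -0.56 with si1 and FOXB1 at -0.49 with the ZSCAN5A siRNAs. FOXK1 moved further, to -0.31 and -0.39.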

How the data were processed

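RNA-seq libraries of HEK-293 cells were used, 4 in all. According to the submitters' processing notes, the authors used CASAVA 1.8.2, Trimmomatic 0.30, TopHat2 2.1.0 and Cufflinks 2.2.1 with hg19, and deposited FPKM values per gene, which were used without further scaling. Labels and methods name different library kits, and whether counting used strand is not given in the sources used here. The table holds 0 other columns of per-sample values.

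Genes at 1 FPKM or above in at least 1 library of a comparison and above 0 on both sides were tested, without a pseudocount. A ratio above 1.5-fold was called. Each siRNA had a single library, so no ratio has a replicate error. The members, lists and tests were chosen with earlier results of these data known. Named genes were the FOX genes past the fold limit, FOXQ1, FOXD1, FOXB1, the 5 highest in the control, a fixed set of well-studied members, and list genes past the limit. The values of 1 expressed member are not reported here, but it stays in all counts and medians.

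Fragments were recovered as the smallest whole numbers, up to 3000, that fit the 4 FPKM values within a relative 8e-06, and were kept where the implied length matched the annotated transcript. This gave fragments for 26 of the 48 rows above 0. Transcripts came from GENCODE v44 lifted to GRCh37 and matched 47 of the 50 rows. Analyses used Python 3.11.15, pandas 2.3.3, SciPy 1.17.1, Biopython 1.88, matplotlib 3.10.9 and limma 3.58.1 in R 4.3.3, tested on simulated data.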

Additional observations from a re-analysis of the deposited data

How the results depend on the processing

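The FOX medians stayed below 0 under all alternatives run. The ZSCAN5A median of -0.23 was -0.21 at a limit of 3 FPKM, -0.20 with a pseudocount of 1, -0.21 with median-ratio scaling, -0.20 with upper-quartile scaling, -0.24 with si5 alone and -0.24 without FOXO3B. The si1 median of -0.25 was -0.19 with a pseudocount of 1. With the transcript length and GC correction, chosen after seeing the data as was the step without FOXO3B, the medians were -0.19 and -0.15. The ZSCAN5A count of 4 genes, where 3.79% of all genes were past the limit either way, was 10 at a fold limit of 1.3 (12.6% of all genes), 7 with si4 alone (6.36%), 3 with si5 alone (3.54%), 2 with upper-quartile scaling (3.42%), 1 with the length and GC correction (2.1%) and 0 with a pseudocount of 1 (1.53%) or a fold limit of 2 (0.562%). The si1 count of 6, where 4.01% of all genes were past it, was 3 with the correction (2.55%), 2 with a pseudocount of 1 (1.63%) and 0 at a fold limit of 2 (0.519%). limma on log2(FPKM + 1), with si4 and si5 as 1 group and 1 residual degree of freedom, called 0 FOX genes in either comparison and 0 and 2 of 13019 genes, with 9 and 8 of 29 FOX genes at an unadjusted p under 0.05, as were 13.3% and 10.6% of all genes. In it the lone si1 and control libraries are assumed to vary like si4 and si5. No paired analysis was possible because each siRNA has 1 library. Fragment intervals cover counting error only, and genes under 1 FPKM were too shallow for small differences to be detectable.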
